A study of Mus musculus with 24 samples.

Results

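The lungs of mice given A-DEP together with ovalbumin were compared with the lungs of mice given ovalbumin alone, on 6 of the 24 arrays of a study of chemically distinct diesel exhaust particles (DEP). The arrays were chosen by sample title, 3 for ADEP/OVA and 3 for Saline/OVA, and the latter group is called OVA here. All 24 mice of the study were female BALB/C animals aged 8 to 10 weeks, in 8 groups of 3, and each array carried frozen lung RNA of 1 mouse. Doses were placed in the nose on day 0 and day 13, and the lungs were taken 18 hours after that. The ADEP/OVA mice received 150 ug of A-DEP and 20 ug of ovalbumin, and the OVA mice received 20 ug of ovalbumin with no particles. Both groups were labelled as sensitized. The arrays of the other 6 groups entered the same statistical fit. Those used for reference were saline (Saline) and A-DEP without ovalbumin (ADEP), both labelled as not sensitized, and N-DEP or C-DEP with ovalbumin (NDEP/OVA, CDEP/OVA), labelled as sensitized and given the same 150 ug and 20 ug. N-DEP and C-DEP were also given without ovalbumin, 150 ug each, to mice labelled as not sensitized (NDEP, CDEP). The labels used here do not say what the letters A, N and C stand for.

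Diesel exhaust particles are carbon soot that carries adsorbed organic compounds and metals, and they act as adjuvants when they reach the airway with an allergen. Ovalbumin, an egg white protein, is a standard model allergen in BALB/C mice, a strain that readily mounts type 2 responses. In that response interleukin 13 and interleukin 4 act through STAT6 on airway epithelium and macrophages, inducing mucus genes, eosinophil and T cell chemokines and alternative activation genes. Irritant injury instead engages interleukin 1 and NF-kB, with acute phase proteins and chemokines for neutrophils and monocytes.

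Values are log2 array intensities, 1 probe set per gene, for 12393 genes. Differences are ADEP/OVA minus OVA on the log2 scale with the standard error (SE) of a limma fit over all 24 arrays, n = 3 per group, and adjusted p-values are Benjamini-Hochberg values over all genes. A gene is said to have risen or fallen, or to have passed the test, where the adjusted p was below 0.05. The tissue label was borne out by its defining markers. Surfactant protein C (Sftpc) lay between 13.61 and 13.82 on the 6 arrays and the club cell secretoglobin Scgb1a1 between 13.89 and 14.13. Array medians over all 24 arrays ran from 72.2 to 75.5 intensity units. The 25th percentile of an array was between 4.45 and 4.65 on the log2 scale. A gene is called dim in a group where its mean lay below the lowest 25th percentile among that group's own arrays. That cut was 4.525 in OVA and 4.540 in ADEP/OVA. Heart muscle transcripts were also present. The mean log2 level of 23 heart muscle genes was 7.81, 7.71 and 7.78 in the OVA lungs and 7.29, 7.53 and 7.60 in the ADEP/OVA lungs, so these groups did not overlap. None of the 23 passed the test (limma, 9 with an unadjusted p under 0.05, all lower), and differences such as that of Myh6, the atrial myosin heavy chain (-0.64 ± 0.24, adjusted p = 0.28), stayed below the threshold. With heart and fat marker levels as covariates, 169 genes passed, among them 80 of the 85 named next.

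With A-DEP added to ovalbumin, a set of chemokine, acute phase and macrophage genes rose in the lung. A few genes fell, among them detoxifying and antioxidant enzymes, of which Gsta3 alone passed with any 1 of the 6 arrays left out. Of the 12393 genes, 85 (0.686%) passed the test: 78 (0.629%) rose and 7 (0.0565%) fell. Of the 78, 31 rose at least 2-fold, and the folds of the 78 ran from 1.32 to 6.83. No gene that fell changed 2-fold, the lowest difference being -0.75. All 85 had ADEP/OVA arrays that did not overlap the OVA arrays, a property that 2236 genes (18.0%) had in all. The median difference over all genes was 0.03, 57.7% of all genes had a difference above 0, and 1414 (11.4%) had an unadjusted p under 0.05, which is the background for the counts of list members given below. With only the 6 compared arrays in the fit 74 genes passed, 49 of them among the 85, and Saa3, Lcn2, Cd177, Il1b, Retnla, Relb, Mgl2 and Tnc were among the 36 no longer called. In bulk lung, fewer cells of a type and less RNA per cell cannot be told apart, which holds for every difference given here.

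**Figure D1:**
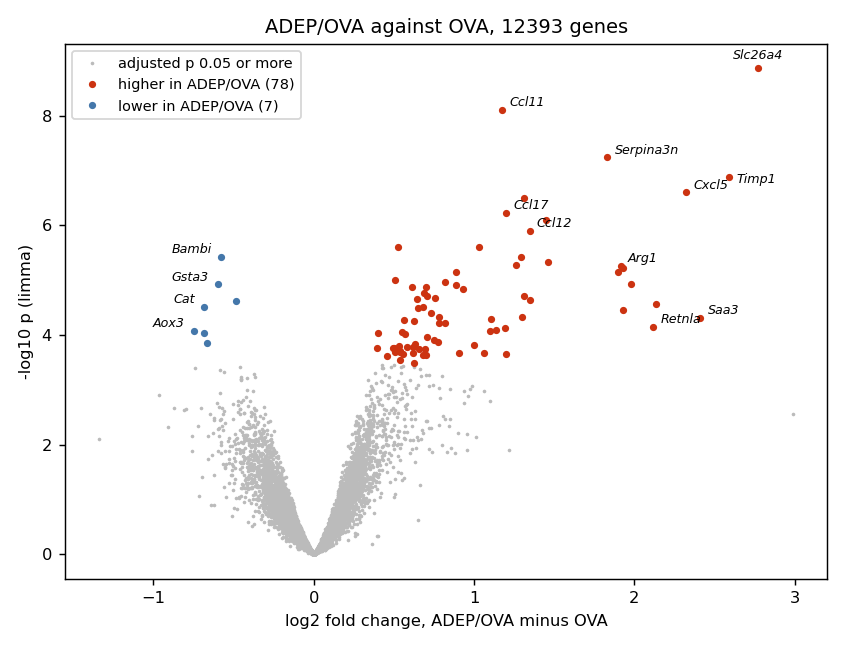
Each point is 1 of 12393 genes, with the log2 difference of ADEP/OVA minus OVA on the x axis and the -log10 of the unadjusted limma p on the y axis, 3 arrays per group. Red (78 higher) and blue (7 lower) points passed at an adjusted p of 0.05, and the red points reach 2.77 while the blue ones reach -0.75.

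The count depended on one control lung. OVA replicate 2 was the lowest OVA array for 58 of the 78 genes that rose (74.4%), against 33.5% of all genes. Without it 18 genes passed. With any other single array left out, between 52 and 97 genes passed. All 85 kept their sign without OVA replicate 2, and their median absolute difference went from 0.75 to 0.65. The genes that passed with any 1 of the 6 arrays left out numbered 17: Slc26a4, Timp1, Cxcl5, Arg1, Serpina3n, Ccl8, Ch25h, Ccl12, Ms4a6d, Ccl7, Ccl2, Ccl17, Ccl11, Cyp7b1 and Slc35b1 among those that rose, and Bambi and Gsta3 among those that fell.

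The gene with the highest difference of those that passed was Slc26a4, which encodes pendrin, an anion exchanger of airway epithelium that type 2 cytokines induce and that serves here as 1 of 14 mucus and goblet cell genes. Its level was 6.37, 5.16 and 5.97 in the OVA lungs and 8.00, 9.18 and 8.64 in the ADEP/OVA lungs. The groups did not overlap, the lowest ADEP/OVA lung standing above the highest OVA lung. The difference was 2.77 ± 0.29 (SE), or 6.83-fold (adjusted p = 1.7e-05). Timp1, an inhibitor of matrix metalloproteinases, followed at 7.84, 5.96 and 7.08 in OVA and 9.79, 9.44 and 9.43 in ADEP/OVA. It rose by 2.59 ± 0.35, or 6.03-fold (adjusted p = 0.000412), again with no overlap.

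**Figure D2:**
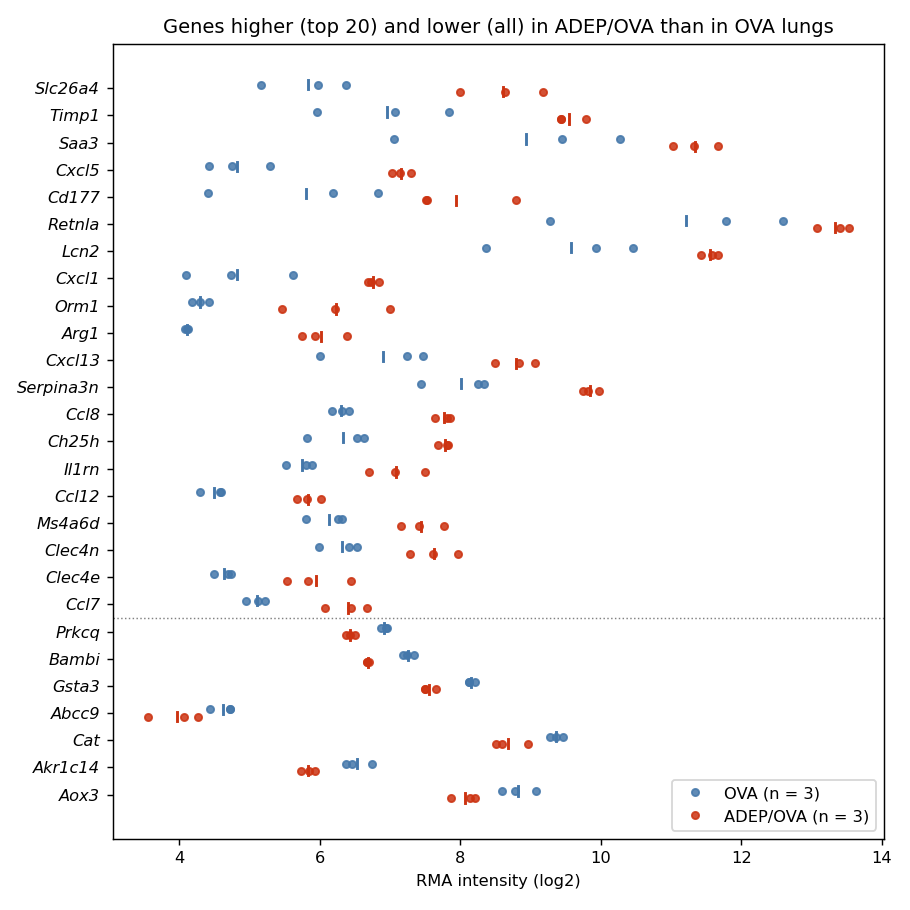
Log2 intensity (x axis) of the 20 genes with the highest differences and, below the dotted line, the 7 genes that fell, on the 3 OVA (blue) and 3 ADEP/OVA (red) arrays, with ticks at the group means. In each row all ADEP/OVA points lie on one side of all OVA points, and the OVA lungs spread widely for Saa3 (7.06 to 10.28) and Retnla (9.27 to 12.60).

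Acute phase genes, made by epithelium and macrophages as well as liver during inflammation, had 4 of 18 measured members higher and 0 lower, with a median difference of 0.66 against 0.03 for all genes. Saa3, serum amyloid A3, lay at 10.28, 7.06 and 9.45 in OVA and 11.67, 11.03 and 11.32 in ADEP/OVA. OVA replicate 2 stood far below the other lungs. The difference was 2.41 ± 0.49 (adjusted p = 0.0142) and 1.48 without that array, where it no longer passed. Lcn2, the siderophore-binding lipocalin, showed the same ordering, at 10.46, 8.36 and 9.93 against 11.67, 11.42 and 11.58, and its difference of 1.98 ± 0.36 (adjusted p = 0.00632) became 1.37 without OVA replicate 2 and did not pass. Orm1, orosomucoid, was dim in all OVA lungs at 4.43, 4.18 and 4.30 and reached 6.22, 5.46 and 7.0015 in ADEP/OVA (1.93 ± 0.38, adjusted p = 0.0113). The protease inhibitor Serpina3n was the member least moved by any single lung. It lay at 8.33, 7.44 and 8.26 in OVA and 9.98, 9.74 and 9.81 in ADEP/OVA, a rise of 1.83 ± 0.24 (adjusted p = 0.000237). Without OVA replicate 2, 1 of the 18 passed.

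Chemokines that draw neutrophils through CXCR2 had 2 of 6 members higher. Cxcl5, made mainly by lung epithelium, lay at 5.30, 4.43 and 4.76 in OVA and 7.29, 7.02 and 7.14 in ADEP/OVA, which did not overlap (2.32 ± 0.33, 5.01-fold, adjusted p = 0.000618). Cxcl1 rose from 5.62, 4.10 and 4.74 to 6.84, 6.68 and 6.73 (1.93 ± 0.34, adjusted p = 0.00435), and without OVA replicate 2 it stood at 1.57 and did not pass. Cxcl2 differed by 0.94 ± 0.27 and did not pass (adjusted p = 0.122). Of 15 neutrophil markers, 4 rose: Cd177, Clec4e, Clec4d and Il1r2, and none passed without OVA replicate 2. Cd177, a neutrophil surface glycoprotein, was 6.82, 4.41 and 6.19 in OVA and 7.52, 7.51 and 8.79 in ADEP/OVA (2.13 ± 0.41, adjusted p = 0.00967). The granule proteins S100a8 and S100a9, which are abundant in neutrophils, differed by 0.51 ± 0.28 and 0.55 (adjusted p = 0.504 and 0.412) and did not pass. The mean log2 level over the 15 markers was 6.21, 5.83 and 6.18 in OVA and 6.77, 6.42 and 6.73 in ADEP/OVA, without overlap.

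Chemokines that recruit monocytes had 5 of 11 measured members higher, with a median of 0.85. These were Ccl2, Ccl3, Ccl7, Ccl9 and Ccl12, and Ccl2, Ccl7 and Ccl12 passed without OVA replicate 2 as well. Ccl2 lay at 6.21, 6.15 and 6.12 in OVA and 7.60, 7.51 and 7.14 in ADEP/OVA (1.26 ± 0.22, adjusted p = 0.00427). Ccl7 lay at 5.13, 4.96 and 5.23 in OVA and 6.67, 6.44 and 6.07 in ADEP/OVA (1.29 ± 0.22, adjusted p = 0.00368). Both were tight among the OVA lungs and clear of them in every ADEP/OVA lung. Ccl12, dim in OVA, went from 4.58, 4.30 and 4.60 to 6.02, 5.67 and 5.82 (1.35 ± 0.21, adjusted p = 0.00173). Among acute cytokines and their inhibitors 3 of 15 rose, all of the interleukin 1 system. Il1b, the inflammasome product, was 7.42, 6.36 and 7.17 in OVA and 8.40, 7.88 and 8.25 in ADEP/OVA (1.19 ± 0.25, adjusted p = 0.0184). Its antagonist Il1rn rose by 1.35 ± 0.26 (adjusted p = 0.00862) and its decoy receptor Il1r2 by 1.06 ± 0.24 (adjusted p = 0.0339). None of these 3 passed without OVA replicate 2. The other Il1rn probe sets differed by 0.60 and 0.28 and did not pass. Il6 was dim in both groups and did not pass (0.38 ± 0.19, adjusted p = 0.45).

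Chemokines tied to type 2 responses, which act through CCR3, CCR4 and CCR8 on eosinophils and T helper 2 cells, had 4 of 9 list members higher: Ccl11, Ccl17, Ccl8 and Ccl22. Ccl11, or eotaxin 1, an eosinophil attractant, was dim and tight in the OVA lungs at 4.17, 4.25 and 4.37. In the ADEP/OVA lungs it lay at 5.58, 5.65 and 5.07, clear of every OVA lung. The rise was 1.17 ± 0.14, or 2.26-fold (adjusted p = 4.81e-05). Ccl17, a dendritic cell product that acts on CCR4, went from 6.23, 6.15 and 7.06 to 7.57, 7.74 and 7.74 (1.20 ± 0.18, adjusted p = 0.00105). OVA replicate 3 was the highest OVA lung for Ccl17 and still below all 3 ADEP/OVA lungs. Ccl8 lay at 6.32, 6.17 and 6.42 in OVA and 7.64, 7.82 and 7.85 in ADEP/OVA (1.46 ± 0.25, adjusted p = 0.00414). Ccl22, the other CCR4 ligand, was 5.99, 5.72 and 5.998 in OVA and 6.57, 6.60 and 6.62 in ADEP/OVA (0.69 ± 0.13, adjusted p = 0.00757). Ccl24, or eotaxin 2, differed by 0.50 and the receptors Ccr3, Ccr4 and Ccr8 by -0.06, 0.06 and -0.08, and none of the 4 passed. With Batf3, a transcription factor of cross-presenting dendritic cells (0.56 ± 0.11, adjusted p = 0.0146), Ccl17 and Ccl22 were the 3 of 11 dendritic cell markers that rose.

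The cytokines and cells upstream and downstream of those chemokines did not pass. None of 12 genes for type 2 cytokines, their receptors and transcription factors did (limma, 2 with an unadjusted p under 0.05), and Il13 lay at 4.44, 4.51 and 4.42 in OVA and 4.52, 4.34 and 4.75 in ADEP/OVA, dim in both. Il5 was also dim in both (0.18 ± 0.12, adjusted p = 0.611). Whether these transcripts differed was not detectable at that brightness. None of 7 eosinophil markers passed (2 with an unadjusted p under 0.05), and 6 of the 7 were dim in both groups. Eosinophil peroxidase (Epx) lay at 3.97, 4.03 and 3.65 in OVA and 4.07, 4.20 and 4.23 in ADEP/OVA (0.29 ± 0.11, adjusted p = 0.292).

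Alternative macrophage activation genes, which STAT6 induces, had 2 of 11 higher. Arg1, arginase 1, was dim and uniform in OVA at 4.11, 4.13 and 4.08 and reached 6.38, 5.94 and 5.75 in ADEP/OVA. The groups stood well apart (1.92 ± 0.33, 3.77-fold, adjusted p = 0.00427). Retnla, a resistin-like secreted protein also made by airway epithelium, lay at 11.78, 9.27 and 12.60 in OVA and 13.07, 13.40 and 13.53 in ADEP/OVA (2.12 ± 0.44, adjusted p = 0.0177). Its OVA lungs spread over more than 3 log2 units, and without OVA replicate 2 the difference was 1.15. The chitinase-like Chil3 and Chil4 differed by 0.88 ± 0.33 and 0.72 ± 0.27 and did not pass (adjusted p = 0.269 and 0.252). The macrophage lectin Mgl2, at 7.15, 6.66 and 7.25 in OVA and 7.55, 8.16 and 8.01 in ADEP/OVA, rose by 0.89 ± 0.16 (adjusted p = 0.00463).

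Among 14 mucus and goblet cell genes all 14 differences were above 0 (57.7% of all genes), 11 had an unadjusted p under 0.05 (11.4% of all genes) and the median was 0.53, but Slc26a4 was the single one that passed. The other members varied widely among the OVA lungs. Clca1, a goblet cell secretory protein, lay at 6.79, 3.80 and 9.29 in OVA and 7.92, 10.80 and 10.13 in ADEP/OVA, which overlapped (2.99 ± 0.90, adjusted p = 0.151). Muc5ac, the inducible airway mucin, lay at 5.94, 6.24 and 6.28 in OVA and 6.29, 6.70 and 6.97 in ADEP/OVA. The lowest ADEP/OVA lung was barely above the highest OVA lung, and the difference of 0.50 ± 0.18 did not pass (adjusted p = 0.234). Agr2, the disulfide isomerase needed for mucin folding, differed by 1.22 ± 0.45 with overlapping groups (adjusted p = 0.257).

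Macrophage proteases and their inhibitors had 4 of 19 higher, Timp1, Mmp12, Ctsk and Adam8. Mmp12, macrophage elastase, was 6.13, 6.35 and 6.34 in OVA and 7.36, 7.44 and 7.62 in ADEP/OVA, close together within each group (1.20 ± 0.28, adjusted p = 0.0339). It lost its call with any 1 of the 6 arrays left out. The lysosomal collagenase Ctsk, cathepsin K, rose by 1.11 ± 0.23 (adjusted p = 0.0142). Ch25h, which makes the oxysterol 25-hydroxycholesterol, lay at 6.53, 5.82 and 6.64 in OVA and 7.83, 7.69 and 7.82 in ADEP/OVA (1.45 ± 0.22, adjusted p = 0.00125). Cyp7b1, the hydroxylase that clears that oxysterol, rose as well, from 6.44, 5.71 and 6.0045 to 7.07, 6.97 and 7.20 (1.03 ± 0.17, adjusted p = 0.00276). Ms4a6d, a macrophage membrane protein, rose by 1.31 ± 0.19 (adjusted p = 0.000664). None of 10 alveolar macrophage markers passed (limma, 4 with an unadjusted p under 0.05, all higher). The B cell follicle chemokine Cxcl13, 1 of 7 lymphoid chemokine genes, lay at 7.47, 6.002 and 7.24 in OVA and 9.06, 8.84 and 8.49 in ADEP/OVA (1.90 ± 0.33, adjusted p = 0.00463), and did not pass without OVA replicate 2 (1.45).

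Of 15 NF-kB genes 2 rose, the noncanonical subunit Relb and the feedback inhibitor Tnip1, with a median of 0.33. Neither passed without OVA replicate 2, and Tnip1 lost its call with any 1 of the 6 arrays left out. Relb lay at 6.82, 6.21 and 6.51 in OVA and 7.38, 7.07 and 7.20 in ADEP/OVA (0.70 ± 0.13, adjusted p = 0.00644), which did not overlap. None of 17 interferon gamma response genes passed (limma, 4 with an unadjusted p under 0.05, all higher), although all 17 differences were above 0, with a median of 0.30 (all genes, 57.7% above 0 and 11.4% with such a p). Nor did any of 13 type I interferon genes (1 with an unadjusted p under 0.05). No marker of T cells (12 measured), natural killer cells (9), mast cells (9) or club cells (10) passed (limma, with 0, 2, 0 and 4 at an unadjusted p under 0.05, the 2 and the 4 all lower). Il33, an epithelial alarmin, lay at 6.84, 6.73 and 6.96 in OVA and 7.35, 7.78 and 7.33 in ADEP/OVA, apart but short of the threshold (0.64 ± 0.22, adjusted p = 0.206). It rose by 1.59 with A-DEP alone (adjusted p = 0.000774). The interaction test given below did not pass for Il33, so a difference between these responses was not shown.

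**Figure D3:**
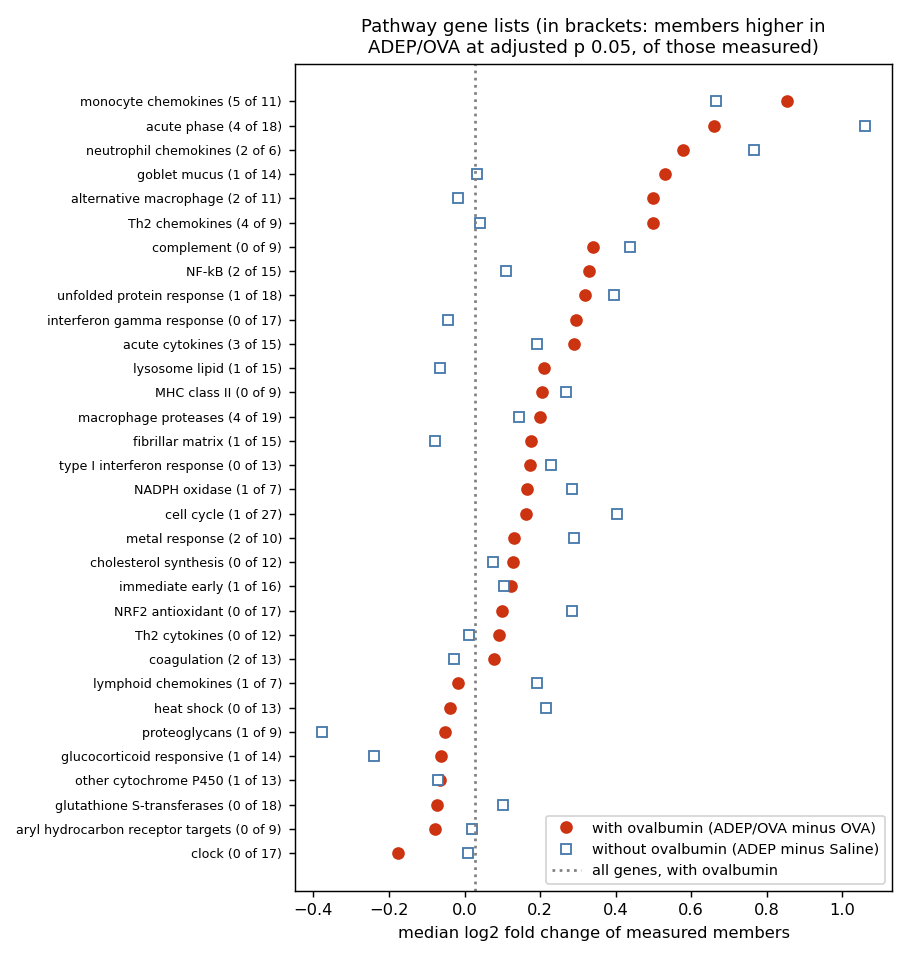
Median log2 difference of the measured members of each pathway list, as filled circles for ADEP/OVA minus OVA and open squares for ADEP minus Saline, with the count of members higher in ADEP/OVA in brackets and a dotted line at the all-gene median of 0.03. The monocyte chemokine list has the highest median with ovalbumin (0.85, 5 of 11 higher), and the type 2 chemokine list stands at 0.50 with ovalbumin and 0.04 without.

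The 7 genes that fell included enzymes of oxidative and conjugating metabolism. Catalase (Cat), which breaks down hydrogen peroxide, lay at 9.28, 9.36 and 9.46 in OVA and 8.59, 8.51 and 8.96 in ADEP/OVA. All 3 ADEP/OVA lungs were below all OVA lungs, and it fell by 0.68 on the log2 scale (SE 0.13, adjusted p = 0.0104). Gsta3, a glutathione transferase, was even within both groups, at 8.13, 8.12 and 8.20 against 7.50, 7.66 and 7.50 (-0.60 ± 0.11, adjusted p = 0.00632). Aox3, an aldehyde oxidase, lay at 8.60, 8.78 and 9.08 in OVA and 7.87, 8.14 and 8.22 in ADEP/OVA (-0.75 ± 0.16, adjusted p = 0.0198). Akr1c14, an aldo-keto reductase that acts on steroids, went from 6.38, 6.45 and 6.75 to 5.74, 5.84 and 5.94 (-0.69 ± 0.15, adjusted p = 0.0205). Of these 4 enzymes only Gsta3 passed with any 1 of the 6 arrays left out. Cat, Aox3 and Akr1c14 each passed in 2 of those 6 fits. With heart and fat marker levels as covariates, Aox3 (-0.63, adjusted p = 0.0885) and Akr1c14 (-0.61, adjusted p = 0.0599) did not pass. The remaining 3 have other roles. Bambi, a decoy receptor of TGF-beta and BMP signalling, lay at 7.19, 7.24 and 7.35 in OVA and 6.68, 6.67 and 6.70 in ADEP/OVA (-0.58 ± 0.10, adjusted p = 0.00368). Prkcq, the protein kinase C of T cell receptor signalling, fell by 0.49 (SE 0.09, adjusted p = 0.00862). Abcc9, a regulatory subunit of potassium channels in vascular and heart muscle, fell by 0.66 (SE 0.15, adjusted p = 0.0283) and was dim in ADEP/OVA.

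Few other members of these enzyme families passed. Of 18 glutathione transferases Gsta3 alone passed, 13 of the 18 differences were below 0 and the median was -0.07. Of 17 NRF2 and antioxidant genes Cat alone passed, in the lower direction, and the median was 0.10. Hmox1, heme oxygenase 1, lay at 7.41, 7.15 and 7.24 in OVA and 7.76, 7.76 and 8.00 in ADEP/OVA, apart but short of the threshold (0.57 ± 0.16, adjusted p = 0.131), and the quinone reductase Nqo1 differed by -0.20 ± 0.14 (adjusted p = 0.623). None of 9 aryl hydrocarbon receptor targets passed (limma, 2 with an unadjusted p under 0.05, against 11.4% of all genes). Cyp1a1, the best known of them, lay at 6.86, 7.95 and 7.41 in OVA and 6.63, 7.31 and 6.67 in ADEP/OVA, overlapping (-0.53 ± 0.26, adjusted p = 0.438), and Cyp1b1 differed by 0.71 ± 0.22 (adjusted p = 0.17).

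Sequence upstream of the leading genes is shown so that their start regions can be set side by side. It is the stretch of 250 bases before the annotated start, from RefSeq on GRCm38.p6, of the 3 genes with the highest and the 3 with the lowest differences that have one in the table, printed on the gene's strand. Cxcl1 and Ccl17 were added after their values and matches were seen. Capitals mark matches to 4 motifs searched on both strands: the STAT6 element (TTC, any 4 bases, GAA), the AP-1 element TGANTCA, the dioxin response core GCGTG, and the NF-kB consensus known as the kB motif.
Slc26a4, chr12:31559985-31560234, minus strand: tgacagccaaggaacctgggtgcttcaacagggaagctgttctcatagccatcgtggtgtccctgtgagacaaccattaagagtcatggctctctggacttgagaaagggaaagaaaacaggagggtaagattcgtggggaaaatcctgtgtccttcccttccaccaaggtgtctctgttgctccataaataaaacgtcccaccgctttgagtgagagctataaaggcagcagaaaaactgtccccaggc
Timp1, chrX:20869916-20870165, plus strand: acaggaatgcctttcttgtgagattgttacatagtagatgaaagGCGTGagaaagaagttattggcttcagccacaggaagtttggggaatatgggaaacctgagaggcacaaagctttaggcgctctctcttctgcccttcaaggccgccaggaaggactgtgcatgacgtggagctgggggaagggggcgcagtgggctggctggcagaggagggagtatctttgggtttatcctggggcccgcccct
Saa3, chr7:46715677-46715926, minus strand: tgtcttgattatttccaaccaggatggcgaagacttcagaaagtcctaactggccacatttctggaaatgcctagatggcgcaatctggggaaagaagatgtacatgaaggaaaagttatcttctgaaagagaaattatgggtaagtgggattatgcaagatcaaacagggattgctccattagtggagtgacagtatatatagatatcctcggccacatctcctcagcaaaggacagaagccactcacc
Aox3, chr1:58112886-58113135, plus strand: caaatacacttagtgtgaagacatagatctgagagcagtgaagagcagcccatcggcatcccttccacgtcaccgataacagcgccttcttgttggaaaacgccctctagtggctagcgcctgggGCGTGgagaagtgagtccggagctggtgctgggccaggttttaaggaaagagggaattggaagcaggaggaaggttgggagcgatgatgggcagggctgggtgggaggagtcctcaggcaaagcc
Akr1c14, chr13:4059341-4059590, plus strand: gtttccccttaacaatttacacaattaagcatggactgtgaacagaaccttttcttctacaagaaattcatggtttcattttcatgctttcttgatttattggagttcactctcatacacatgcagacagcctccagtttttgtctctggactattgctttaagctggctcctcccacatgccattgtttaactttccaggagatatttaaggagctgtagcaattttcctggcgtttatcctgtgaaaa
Cat, chr2:103485154-103485403, minus strand: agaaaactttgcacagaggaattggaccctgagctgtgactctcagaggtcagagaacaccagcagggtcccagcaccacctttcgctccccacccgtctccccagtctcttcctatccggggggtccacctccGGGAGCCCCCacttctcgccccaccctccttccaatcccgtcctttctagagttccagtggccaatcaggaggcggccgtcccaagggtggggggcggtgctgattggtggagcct
Cxcl1, chr5:90890995-90891244, plus strand: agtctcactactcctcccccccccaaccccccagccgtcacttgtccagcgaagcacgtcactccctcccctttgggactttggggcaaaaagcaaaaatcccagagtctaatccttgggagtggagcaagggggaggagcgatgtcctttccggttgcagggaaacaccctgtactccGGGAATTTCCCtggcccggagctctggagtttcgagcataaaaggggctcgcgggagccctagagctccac
Ccl17, chr8:94810203-94810452, plus strand: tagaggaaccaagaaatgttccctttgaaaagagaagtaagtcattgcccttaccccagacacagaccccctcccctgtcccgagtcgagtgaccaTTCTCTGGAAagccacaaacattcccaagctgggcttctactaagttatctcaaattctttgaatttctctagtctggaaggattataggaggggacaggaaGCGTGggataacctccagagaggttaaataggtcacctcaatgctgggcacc
Slc26a4, Saa3 and Akr1c14 held no match, which says only that these letters are not in this window. Cxcl1 held overlapping kB matches beginning at -71 and -70 from the start, and Cat 1 kB match at -116. Ccl17 held a STAT6 match at -154 and a dioxin core at -52. Timp1 and Aox3 held the dioxin core at -206 and -125. Of the 85 genes 65 had a promoter in the table. Among 76 promoters of 59 genes that rose, 18.4% held a kB match, 10.5% a STAT6 match, 5.3% an AP-1 match and 30.3% a dioxin core. Among 12566 promoters of genes on the array the shares were 8.8%, 4.9%, 5.7% and 39.7%, and among all 32851 promoters 7.3%, 5.9%, 6.7% and 28.2%. For the 6 promoters of 6 genes that fell they were 33.3%, 0.0%, 0.0% and 33.3%, so the kB share was not higher in the genes that rose than in those that fell. A match is a description of letters and not a bound site, and no test was made of these shares.

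A-DEP without ovalbumin was compared with saline on 6 other arrays, so that the group means share no lung with the comparison above, although both take their error from the fit over 24 arrays. There, 205 genes (1.65%) passed, 144 higher (1.16%) and 61 lower (0.492%). Single arrays set that count. Leaving out the third ADEP lung left 8 genes, the first Saline lung 14 and the first ADEP lung 34. With heart and fat marker levels as covariates 2 of the 205 passed, and with only the compared groups fitted 111 genes did. Genes called in both comparisons numbered 29, or 34.1% of the 85 and 14.1% of the 205, and all 29 rose in both. They included Slc26a4, Timp1, Saa3, Cd177, Lcn2, Cxcl1, Orm1, Cxcl13, Serpina3n, Il1rn, Il1b, Ccl2, Ccl3, Ccl9 and Ccl12. Of the 78 genes that rose with ovalbumin, 72 had a difference above 0 without it, with a median of 0.47 against 0.78. Of the 7 that fell, 3 had a difference below 0 without ovalbumin, with a median of 0.00 against -0.66.

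**Figure D4:**
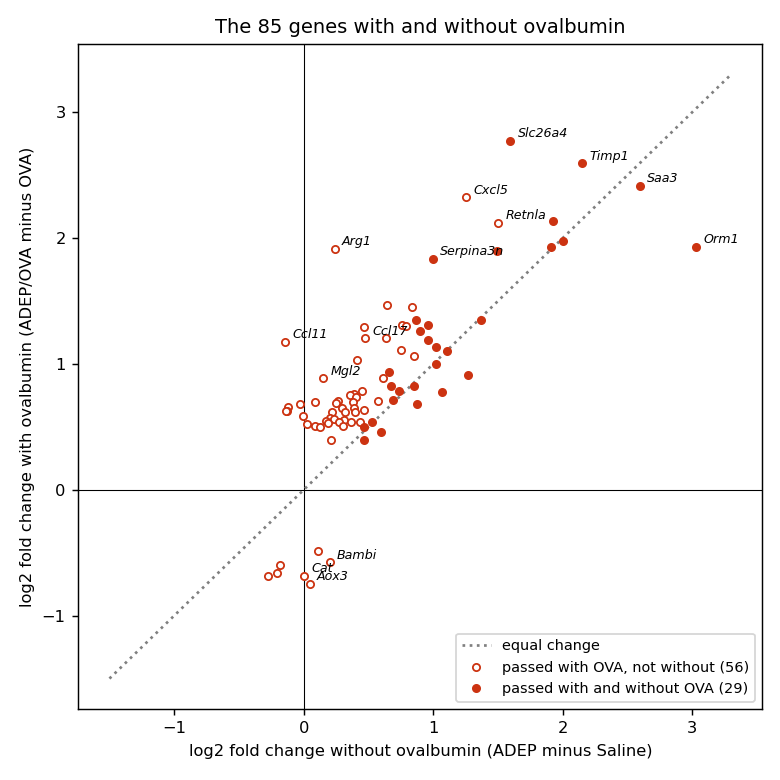
For the 85 genes, the log2 difference of ADEP minus Saline on the x axis against that of ADEP/OVA minus OVA on the y axis, from 12 separate arrays. Filled points are the 29 genes that passed in both and open points the 56 that passed with ovalbumin and not without, and the dotted line marks equal values. Ccl11 (1.17 against -0.14) and Arg1 (1.92 against 0.24) lie well above that line.

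With A-DEP alone 12 of the 18 acute phase genes rose, with a median of 1.06, beside the 4 of 18 that rose with ovalbumin. Saa3 lay at 8.31, 9.86 and 9.21 in Saline and 11.67, 11.42 and 12.09 in ADEP, a difference of 2.60 (adjusted p = 0.0087). Orm1 went from 4.83, 4.76 and 4.92 to 8.15, 7.02 and 8.43 (3.03, adjusted p = 0.000435). The protease inhibitor gene Timp1 lay at 7.07, 7.41 and 7.23 in Saline and 9.47, 8.91 and 9.77 in ADEP (2.15, adjusted p = 0.00342). For these 3 genes the ADEP lungs overlapped the ADEP/OVA lungs or, for Orm1, stood above them.

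With A-DEP alone none of the 9 type 2 chemokine genes rose, with a median of 0.04. Ccl11 lay at 4.45, 4.50 and 4.62 in Saline and 4.40, 4.50 and 4.24 in ADEP, overlapping (-0.14, adjusted p = 0.685). Arg1 lay at 3.78, 4.14 and 3.73 in Saline and 4.22, 4.01 and 4.15 in ADEP, also overlapping (0.24, adjusted p = 0.8). Ccl8 and Ccl17 differed by 0.65 and 0.47 (adjusted p = 0.197 and 0.185). Cat differed by 0.00, and Bambi lay at 6.96, 6.96 and 6.80 in Saline and 7.09, 7.21 and 7.01 in ADEP (0.20, adjusted p = 0.324).

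Whether the response to A-DEP differed with ovalbumin was tested as an interaction, (ADEP/OVA minus OVA) minus (ADEP minus Saline), over 12 arrays. It passed for 3 genes (0.0242%) in limma, with 1292 at an unadjusted p under 0.05. Ccl11 was higher by 1.32 ± 0.19 (adjusted p = 0.00543) and passed with any 1 of the 12 arrays left out. With heart and fat marker levels as covariates its value was 1.22 and did not pass (adjusted p = 0.0855). Bambi was lower (-0.78 ± 0.14, adjusted p = 0.048), from differences of -0.58 with ovalbumin and 0.20 without. Timm10b, a mitochondrial import protein, was lower by interaction as well (-0.80 ± 0.15, adjusted p = 0.0496). It lay at 7.72, 7.32 and 7.52 in Saline, 8.18, 8.17 and 7.98 in OVA, 8.08, 8.30 and 8.27 in ADEP and 8.04, 7.95 and 8.03 in ADEP/OVA. The Bambi and Timm10b calls were lost with most single arrays left out, and Timm10b stood at -0.27 when its probe sets were averaged. Of the 85 genes, Ccl11 and Bambi were those with an interaction call. The interaction did not pass for Arg1 (1.68 ± 0.47, adjusted p = 0.232) or Slc26a4 (1.18 ± 0.41, adjusted p = 0.334), so a difference between their responses with and without ovalbumin was not shown.

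The other particles given with ovalbumin also had most of their values for the 78 genes above OVA. The median difference from OVA was 0.78 with A-DEP, 0.81 with N-DEP and 0.84 with C-DEP. These 3 comparisons share the same OVA arrays and the genes were chosen on the first, so the medians are side by side values only. Timp1 stood at 2.59, 2.09 and 2.54 over OVA with A-, N- and C-DEP, Saa3 at 2.41, 2.12 and 2.19, and Slc26a4 at 2.77, 3.97 and 4.14. For the 7 genes that fell, the medians were -0.66, -0.48 and -0.34.

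**Figure D5:**
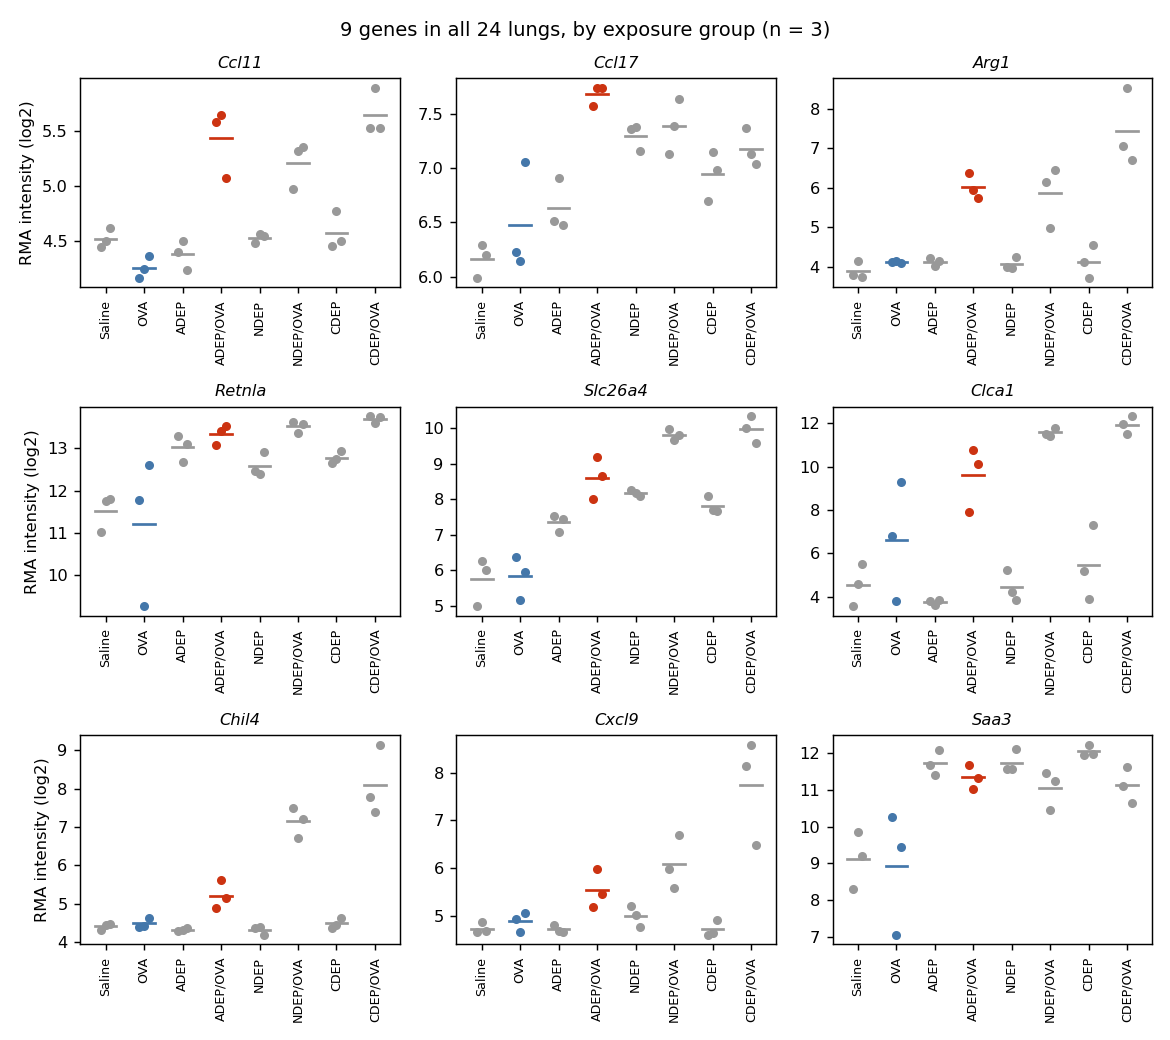
Log2 intensity of 9 genes on all 24 arrays, with 3 points per group and bars at the means, OVA in blue, ADEP/OVA in red and the other groups in grey (NDEP and CDEP are N-DEP and C-DEP without ovalbumin). Chil4 lies between 4.87 and 5.61 in ADEP/OVA and at 6.72 or above in NDEP/OVA and CDEP/OVA, while Ccl11 lies at 4.97 or above in all 3 groups given particles with ovalbumin.

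The differences between the particle groups do not contain the OVA means, though their errors come from the fit over all 24 arrays. With only the compared groups fitted, 19 genes passed against CDEP/OVA. With all arrays in the fit, 177 genes (1.43%) passed, 76 higher in ADEP/OVA (0.613%) and 101 lower (0.815%). That count ran from 35, without ADEP/OVA replicate 1 or without CDEP/OVA replicate 2, to 386 without CDEP/OVA replicate 1. Of the 85 genes 6 differed, all lower in ADEP/OVA: Arg1, Slc26a4, F10, Slc6a20a, Aox3 and Prkcq. Slc26a4 lay at 10.01, 10.32 and 9.59 in CDEP/OVA, above every ADEP/OVA lung (-1.37 ± 0.29, adjusted p = 0.0195). Arg1 lay at 7.06, 8.53 and 6.71 there (-1.41 ± 0.33, adjusted p = 0.0322), and without CDEP/OVA replicate 2 the difference was -0.86. Each of the 6 calls was lost without at least 1 of the 6 arrays. Aox3 and Prkcq, which A-DEP lowered against OVA, differed from OVA by -0.11 and -0.10 with C-DEP.

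Of the 14 mucus and goblet cell genes 6 were lower with A-DEP than with C-DEP, with a median of -0.82: Muc5ac, Agr2, Fcgbp, Tff2, Itln1 and Slc26a4. Of the 11 alternative macrophage genes 3 were lower, Arg1, Chil3 and Chil4, with a median of -0.22. The goblet count was 1 to 5 with single arrays left out (1 without ADEP/OVA replicate 1), 3 with RNA quality or with heart and fat covariates, 2 in a trended fit and 1 with only the compared groups. An RNA quality measure, the 3 prime minus 5 prime signal of Gapdh, was 0.195 ± 0.0895 (SD) in ADEP/OVA and 0.396 ± 0.196 in CDEP/OVA. That of Actb was 0.828 ± 0.0781 in ADEP/OVA and 1.02 ± 0.192 in CDEP/OVA. The exact permutation p was 0.3 for Gapdh and 0.2 for Actb (n = 3 each), where 0.1 is the smallest possible. Agr2 differed by -1.75 ± 0.45 (adjusted p = 0.0492), and by -1.11 without ADEP/OVA replicate 1 (adjusted p = 0.26) and -1.14 with RNA quality covariates (adjusted p = 0.175), where it did not pass. Muc5ac lay at 7.78, 7.92 and 8.55 in CDEP/OVA against 6.29, 6.70 and 6.97, with no overlap (-1.43 ± 0.18, adjusted p = 0.000157). Chil4, a chitinase-like protein of type 2 inflammation, lay at 4.87, 5.61 and 5.13 in ADEP/OVA and 7.79, 7.38 and 9.14 in CDEP/OVA. Chil4 differed by -2.90 ± 0.27 (adjusted p = 1.03e-06), and both Muc5ac and Chil4 passed with any 1 of the 6 arrays left out. Clca1, at 11.96, 11.51 and 12.33 in CDEP/OVA, did not pass (-2.32 ± 0.90, adjusted p = 0.149).

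Interferon gamma response genes also stood lower with A-DEP, 12 of 17, with a median of -0.88. Between 5 and 16 were called with single arrays left out, 5 of them without CDEP/OVA replicate 2. With heart and fat covariates 5 were called, and with only the compared groups fitted 3. Cxcl9, a T cell chemokine induced by interferon gamma, lay at 5.19, 5.98 and 5.46 in ADEP/OVA and 8.15, 8.59 and 6.47 in CDEP/OVA (-2.19 ± 0.33, adjusted p = 0.00152). Gbp6, a guanylate-binding GTPase, lay at 6.29, 6.29 and 5.80 in ADEP/OVA and 8.08, 8.03 and 7.04 in CDEP/OVA (-1.59 ± 0.21, adjusted p = 0.000301). CDEP/OVA replicate 3 was the lowest of its group for both. Heart muscle genes were on the other side, 3 of 23 higher in ADEP/OVA, with a median of 0.49. Their mean log2 level was 6.84, 7.17 and 7.09 in CDEP/OVA, below all 3 ADEP/OVA lungs, and with heart and fat marker levels as covariates 86 genes passed in place of 177.

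Against NDEP/OVA, 2 genes (0.0161%) passed in limma, with 1338 at an unadjusted p under 0.05. None of the 85 did, although 23 of them had an unadjusted p under 0.05. Chil4 lay at 7.49, 6.72 and 7.22 in NDEP/OVA, above every ADEP/OVA lung (-1.94 ± 0.27, adjusted p = 0.0019), and passed with any 1 of the 6 arrays left out. Fabp5, a fatty acid binding protein, lay at 9.24, 9.55 and 9.19 in ADEP/OVA and 9.85, 10.44 and 10.58 in NDEP/OVA (-0.96 ± 0.16, adjusted p = 0.0222). Slc26a4 differed by -1.20 ± 0.29, which did not pass (adjusted p = 0.175).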

How the data were processed

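Lung RNA (2 ug per sample) of 24 mice was hybridised to Affymetrix arrays, 1 array per mouse. The authors deposited 1 table of intensity values, normalized with RMA per the submitters' processing notes. The sources used here give no RMA version and do not say whether values were returned from the log2 scale after it. The deposited intensities ran from 5.982 to 18195.5, so log2 was taken here. No detection calls were used. RMA forces equal distributions on all arrays, so differences are relative to the whole array.

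Of 22690 probe sets, 64 controls were left out, 20380 had 1 gene symbol, 691 several and 1555 none in the platform annotation. The probe set with the highest mean stood for each of 12393 genes, and 4956 genes had more than 1. Of 85 genes called, 25 had 34 other probe sets, 33 with the same sign and 3 called; those of F10 differed by 0.21 and 0.24 only.

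limma 3.58.1 (R 4.3.3) fitted 8 group means over 24 arrays (residual df 16, prior df 8.16), eBayes without trend, two-sided, Benjamini-Hochberg over all genes, threshold 0.05. It was also run on simulated data with independent normal noise for each gene and no outlying array. Such data cannot show how calls that rest on OVA replicate 2 behave. Genes named are the 12 highest and up to 12 lowest that passed without overlap, the 5 highest and lowest of the other tests, up to 4 of each list by p, and a set given always; others (Mgl2, Batf3, Gzma, Kdelr3, Surf4, and further list members) were chosen after their values were seen. Members, gene lists and comparisons were chosen with earlier results of these data known.

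Replicates are separate mice, and no arrays were duplicates (highest correlation 0.996, at most 0.0353% identical values). Precision is limited by having 3 arrays in each group. Alternatives were other probe set rules, a filter on dim genes, renormalization, array weights, a trended fit, fewer groups, a replicate block, covariates and leaving out arrays. Promoters were searched with Python 3.11.15.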

Additional observations from a re-analysis of the deposited data

Results flagged for a closer look

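Groups of 3 arrays were not tested for outlying samples. The results given here are a selection of those whose response differed between groups by a direct limma test, and they are values only.

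The A-DEP response with ovalbumin minus that without differed for Ccl11 (1.32), Bambi (-0.78) and Timm10b (-0.80). Between ADEP/OVA and CDEP/OVA, the lower genes with type 2 or mucus roles included Chil4 (-2.90), Agr2 (-1.75), Chil3 (-1.55), Muc5ac (-1.43), Arg1 (-1.41), Slc26a4 (-1.37), Fcgbp (-0.99) and Il33 (-0.89), besides Tff2 and Itln1 named above. The Agr2 call was lost under most alternatives, with -1.11 without ADEP/OVA replicate 1. The interferon gamma response genes Cxcl9 (-2.19), Iigp1 (-1.64) and Gbp6 (-1.59) were lower too, and Iigp1, a GTPase of pathogen defence, did not pass without CDEP/OVA replicate 2. Others of the 85 genes lower in ADEP/OVA than in CDEP/OVA were F10 (-0.77), Slc6a20a (-0.68), Aox3 (-0.64) and Prkcq (-0.39).

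The genes higher in ADEP/OVA than in CDEP/OVA included Ehd2, a caveola protein (1.01), Fbln1, a matrix fibulin (0.80), and the heart and muscle genes Mb (0.99), Cox6a2 (0.91) and Fabp3 (0.89). Ehd2, Fbln1 and Fabp3 passed with any 1 of the 6 arrays left out. Mb, Cox6a2 and the mean heart marker level were higher together in ADEP/OVA (7.29, 7.53 and 7.60 against 6.84, 7.17 and 7.09 in CDEP/OVA). Between ADEP/OVA and NDEP/OVA, Chil4 (-1.94) and Fabp5 (-0.96) differed.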

How the results depend on the processing

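The 85 genes and the genes flagged above kept the sign of their difference under all alternatives run. The dim Il13, which did not pass, changed sign in some. Signs under the alternatives were not followed for genes named as passed with A-DEP alone, nor for Tff2 and Itln1 against CDEP/OVA. The balance of the counts did turn in places: against CDEP/OVA, 76 higher and 101 lower became 223 and 163 without CDEP/OVA replicate 1, and the interaction calls, 1 higher and 2 lower, became 3 and 1 with the replicate block. The 85 genes became 313 with array weights, 130 with RNA quality covariates and 169 with heart and fat covariates, and 18 to 97 with single arrays left out. The other alternatives gave 74 (only the compared groups, 49 of them among the 85) to 99, with 90 after renormalization (76 higher and 14 lower). The 205 genes of A-DEP alone became 718 with array weights, 111 with only the compared groups, 2 with heart and fat covariates and 8 to 274 with single arrays left out. The 3 interaction genes became 1 over all probe sets, 51 with array weights, 11 with RNA quality covariates, 0 with heart and fat covariates (limma, 650 at an unadjusted p under 0.05) and 1 to 19 with single arrays left out. The 177 genes against CDEP/OVA became 109 after renormalization, 19 with only the compared groups, 86 with heart and fat covariates and 35 to 386 with single arrays left out. The 2 genes against NDEP/OVA became 1 with averaged probe sets or only the compared groups, 5 with array weights, 4 with the replicate block and 1 to 6 with single arrays left out. The causes were not tested.

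Whether replicate numbers pair the samples cannot be decided from 3 pairs. Deviations of same-numbered lungs from their group means correlated at -0.07, -0.06 and 0.28, and 1 of the 3 pairs was its own best match. With the number as a replicate block, 97 genes passed, 84 of them among the 85. The 3 prime minus 5 prime signal of Gapdh, an RNA quality measure, was 0.195 ± 0.0895 (SD) in ADEP/OVA and 0.185 ± 0.156 in OVA. That of Actb was 0.828 ± 0.0781 in ADEP/OVA and 0.816 ± 0.093 in OVA. The exact permutation p was 0.9 for Gapdh and 0.8 for Actb (n = 3 each), where 0.1 is the smallest possible. Dim genes such as Il13 and Epx limit what these arrays can show.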

Other observations

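Slc35b1, an ATP transporter of the endoplasmic reticulum, lay at 8.75, 8.72 and 8.76 in OVA and 9.19, 9.29 and 9.33 in ADEP/OVA, tight in both groups (0.53 ± 0.09, adjusted p = 0.00276), and passed with any 1 of the 6 arrays left out. Chosen after their values were seen, the retrieval receptor Kdelr3 rose by 0.50 ± 0.09 (adjusted p = 0.0061) and the cargo receptor Surf4 by 0.65 ± 0.12 (adjusted p = 0.00846), though 1 of the 4 other Surf4 probe sets had the opposite sign. Of 18 unfolded protein response genes, 16 differences were above 0 with a median of 0.32, and Dnajb11, a chaperone partner of BiP, was the 1 that passed (0.54 ± 0.12, adjusted p = 0.0335).

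Of 13 coagulation genes 2 rose, F7 and F10, which act in sequence in the extrinsic pathway. Neither passed without OVA replicate 2, and the other F10 probe sets differed by 0.21 and 0.24 and did not pass. F7 lay at 7.13, 6.98 and 7.25 in OVA and 7.72, 7.72 and 7.96 in ADEP/OVA (0.68 ± 0.13, adjusted p = 0.0104), and its difference with A-DEP alone was -0.03. Matrix genes had 1 of 15 fibrillar members higher, Tnc, or tenascin C, an injury-induced glycoprotein (0.89 ± 0.16, adjusted p = 0.00632). Of 10 metal response genes 2 rose, the transporters Slc39a14 (0.75 ± 0.16, adjusted p = 0.0258) and Slc11a1. Of 27 cell cycle genes 1 rose, Mcm5 of the replicative helicase (0.82 ± 0.15, adjusted p = 0.00632). Granzyme A (Gzma), of natural killer and T cells, lay at 7.89, 7.74 and 7.32 in OVA and 6.59, 6.79 and 6.96 in ADEP/OVA, apart but not past the threshold (-0.87 ± 0.25, adjusted p = 0.137).

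The 5 genes whose level followed Slc26a4 most closely over all 24 arrays were Slc6a20a (Pearson r 0.925), Ms4a6d (0.920), F10 (0.915), Metrnl (0.902) and Ch25h (0.901). This is a description across arrays that share exposure groups.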
